A study of Homo sapiens with 10 samples.

Results

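Solute carriers are the large group of membrane proteins that move amino acids, sugars, ions, metals, vitamins and metabolites across the cell surface and the membranes of organelles. Their transcripts were followed here in U937, a human monocytic cell line; interferon gamma had been used to differentiate the cells of every group, the control included. A member was a gene whose symbol in the platform annotation has the form SLC, a number, A and a number, that was measured by a probe set with no other gene, and whose signal lay above a floor of about 38, the percentile 25 of all values, on at least 2 of the 10 arrays. The array held 161 genes with such a symbol, of which 132 passed the floor and 29 did not, and 74 of the 132 lay above it on all 10 arrays. SLC2A3, SLC3A2 and SLC7A11 were left out by the rule and are given at the end. The rule used name and level and no test of change, but it was set with earlier results of these data known. Each of the genes left out was called in comparisons with control, so the shares below are those of a list without them.

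The 5 groups had 2 arrays each. The control had no cross-linking and no time in its labels. In the other groups an Fc gamma receptor, which binds IgG, had been cross-linked: either CD32, of low affinity for IgG, or CD64, of high affinity, each for 2 h or 6 h. The second array of a cross-linked group was labelled a duplicate, with no word on whether it was a separate culture, so all p-values measure only the spread between arrays. U937 is a tumour line, which limits it as a model of blood monocytes. For 1 array of CD32 2 h the title and description were followed over a deviating source name. The 4 comparisons with control share the 2 control arrays.

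Transporters for large neutral amino acids and glutamine feed protein synthesis, and several of them work by exchange, so that sodium-coupled uptake of 1 amino acid drives the entry of another. The mitochondrial family SLC25 carries metabolites across the inner membrane, and the SLC30 and SLC39 families move zinc in opposite directions relative to the cytosol. In macrophages the uptake of amino acids, glucose and metals is known to change with activation, and the cells export and compartmentalise metals as part of host defence.

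Cross-linking of either receptor at either time went with higher transcripts of 8 transporters: SLC38A2 and SLC7A5, which carry neutral amino acids, SLC20A1, which takes up phosphate, SLC31A2 of the copper transporter family, the mitochondrial carriers SLC25A14 and SLC25A32, SLC35A1, which brings CMP-sialic acid into the Golgi, and SLC33A1, the acetyl-CoA transporter of the endoplasmic reticulum. They were 6.06% of the 132 members, beside 2.91% of all 7708 probe sets tested that were called higher in all 4 comparisons. SLC31A2 left this list whichever of the 10 arrays was left out, so all 8 stood only with every array in the fit. Of the 8, 5 remained without the first control array, the first CD32 6 h array or the first CD64 2 h array. When only the groups compared were fitted, none remained, but 0 of the 7708 probe sets were then called in CD64 2 h. That fit therefore could not keep any gene in all 4 comparisons. No member was called lower in all 4, beside 1.61% of all probe sets. None was called higher in 1 comparison and lower in another, beside 1.98% of all probe sets. A call here means an adjusted p under 0.05 in limma over all 7708 probe sets. In RNA from a whole culture a change in each cell and a change in the share of cells that carry a transcript cannot be told apart.

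Promoters from RefSeq (GRCh38.p14) were examined for 6 of these 8 genes. Those of SLC25A32 and SLC31A2 were not examined, so the matches below say nothing about them. Of the 6, 4 are printed because they stand for the amino acid, phosphate and acetyl-CoA carriers with the changes described first. Each run is the 250 bases before the most upstream annotated start, 5′ to 3′ on the gene's strand. Capitals mark matches on either strand to GGGCGG (a GC box), CACGTG (an E-box), TGATGNAA (the core of an amino acid response element) or GAAA, 2 bases of any kind and GAAA (the core of an interferon response element).
SLC38A2, chr12:46372774-46373023, minus strand: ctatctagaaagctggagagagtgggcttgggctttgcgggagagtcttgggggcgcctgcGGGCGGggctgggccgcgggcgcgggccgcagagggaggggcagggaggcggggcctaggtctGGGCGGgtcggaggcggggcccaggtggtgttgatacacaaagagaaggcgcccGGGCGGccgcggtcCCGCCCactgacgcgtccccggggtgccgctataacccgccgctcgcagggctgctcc
SLC7A5, chr16:87869508-87869757, minus strand: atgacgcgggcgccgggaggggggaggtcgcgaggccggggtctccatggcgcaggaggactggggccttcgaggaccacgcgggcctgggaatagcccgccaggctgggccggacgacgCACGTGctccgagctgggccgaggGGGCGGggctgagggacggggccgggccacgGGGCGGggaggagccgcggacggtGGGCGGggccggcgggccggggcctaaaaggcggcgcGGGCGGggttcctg
SLC33A1, chr3:155854428-155854677, minus strand: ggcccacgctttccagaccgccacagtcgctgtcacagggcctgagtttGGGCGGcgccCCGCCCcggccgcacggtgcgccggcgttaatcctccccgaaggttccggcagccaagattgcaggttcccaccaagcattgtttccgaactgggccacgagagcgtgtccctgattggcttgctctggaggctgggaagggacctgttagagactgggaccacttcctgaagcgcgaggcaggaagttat
SLC20A1, chr2:112645689-112645938, plus strand: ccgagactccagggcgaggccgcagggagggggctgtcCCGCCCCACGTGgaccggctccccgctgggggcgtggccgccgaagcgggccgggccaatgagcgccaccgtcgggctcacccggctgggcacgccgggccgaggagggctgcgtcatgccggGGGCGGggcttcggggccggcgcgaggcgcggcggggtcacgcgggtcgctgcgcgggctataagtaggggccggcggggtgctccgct

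All 6 promoters held a GC box, as did 42.6% of 35116 RefSeq promoter windows of this length. An E-box lay in 2 of the 6, SLC7A5 and SLC20A1, beside 6.34% of all windows, and in SLC20A1 it directly adjoins a GC box. Of the 112 members with a RefSeq promoter, 78 held a GC box and 17 an E-box at any annotated start. Both motifs are thus common among the transporters and do not mark these 6. Neither the amino acid response core (3.14% of all windows) nor the interferon response core (3.02%) was found in the 6, which says only that these letters are not in these windows. The G and C content of the 6 windows ran from 58.0% to 80.0%. The matches are a description of sequence, and binding was not measured.

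The arrays had a median signal of 101 to 152, and 20.2% to 29.8% of probe sets did not exceed the floor. Signal is linear, in arbitrary units, and levels are compared only within a probe set. Of 8 monocyte markers 6 lay above the floor on all arrays, among them ITGAM at 368 to 784 and TYROBP at 1444 to 2237, but CD14 did so on only 3 of 10 arrays, with a median of 13.8. Markers of other cells each had 1 gene above the floor on all arrays: 1 of 6 for T cells, 1 of 3 for B cells, 1 of 4 for natural killer cells (NKG7 at 1409 to 2300), 1 of 4 for erythroid cells and platelets and 1 of 7 for epithelial cells and fibroblasts. The 9 probe sets of added bacterial and phage transcripts differed by group, from a mean log2 signal of 9.61 in CD64 6 h to 12.6 in CD32 6 h with 10.9 in control. The ratio of the actin probe set at the 3′ end to that at the 5′ end ran from 1.12 in CD64 6 h and 1.30 in control to 1.99 in CD32 6 h. The added transcripts are not made by the cells. These values are group means, so whether both arrays of a group shared a difference is not shown. In every comparison differences in the handling of RNA and arrays cannot be told apart from cross-linking.

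**Figure D1:**
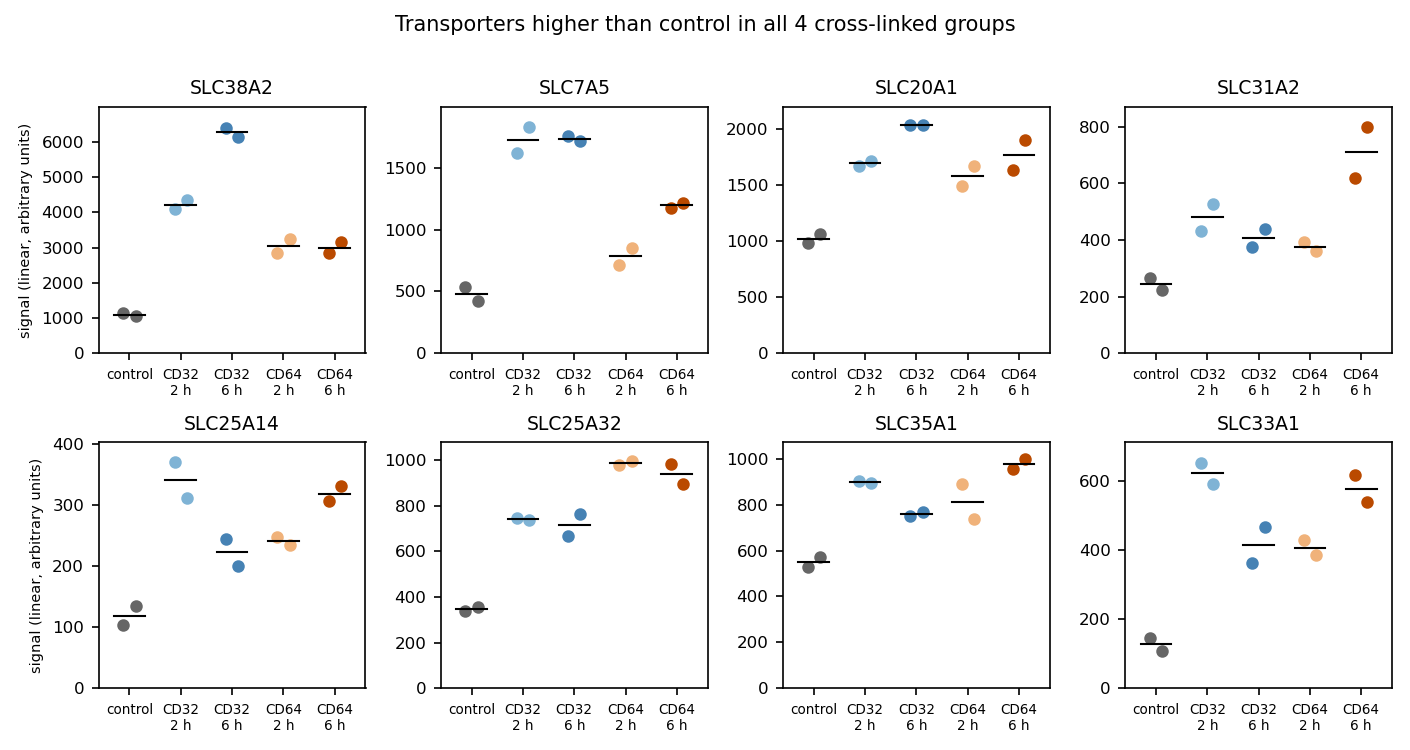
Signal (linear, arbitrary units) of the 8 transporters called higher in all 4 comparisons with control, by group; points are single arrays and bars are group means. In each panel both control points lie below all 8 cross-linked points, and SLC38A2 ranges from 1049.8 to 6393.

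Among the 20 amino acid and peptide transporters, 9 were called in at least 1 comparison with control (45.0%, beside 35.4% of all probe sets, and not tested as a class), and the sodium-coupled and exchange carriers of neutral amino acids gave the largest rises. SLC38A2 takes up small neutral amino acids with sodium. Its signal was 1126 and 1049.8 in control, 4081 and 4345 in CD32 2 h, 6393 and 6145 in CD32 6 h, 2858 and 3251 in CD64 2 h, and 2853 and 3143 in CD64 6 h. All cross-linked arrays were above both controls, and the CD32 arrays were above all CD64 arrays. The differences were 3.87-fold (log2 1.95, SE 0.0954, adjusted p = 8.68e-07, limma) and 5.76-fold (log2 2.53, adjusted p = 8.81e-08) for CD32 at 2 h and 6 h, and 2.80-fold (log2 1.49, adjusted p = 1.09e-05) and 2.75-fold (log2 1.46, adjusted p = 4.53e-06) for CD64.

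SLC7A5 is the light chain of the main exchanger of large neutral amino acids. It gave 534 and 423 in control, 1619 and 1829.7 in CD32 2 h, 1758 and 1717 in CD32 6 h, 716 and 855 in CD64 2 h, and 1177 and 1216 in CD64 6 h. Here too no cross-linked array reached down to the controls, and CD64 2 h was the lowest of the cross-linked groups. In CD32 it was 3.62-fold above control at 2 h and 3.65-fold at 6 h (log2 1.86 and 1.87, SE 0.134). In CD64 it was 1.65-fold and 2.52-fold above control (log2 0.72 and 1.33, adjusted p = 0.00463 and 5.74e-05, limma). The 4 calls of SLC38A2 and the 4 of SLC7A5 each held whichever of the 10 arrays was left out, with a highest adjusted p of 0.0491 for SLC7A5 in CD64 2 h.

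SLC1A4 exchanges alanine, serine, cysteine and threonine. Its arrays read 554 and 594 in control, 1587 and 1565 in CD32 2 h, 1156 and 1131 in CD32 6 h, 612 and 586 in CD64 2 h, and 1171 and 1154 in CD64 6 h. CD64 2 h lay at the control level, while the other groups were apart from it. Adjusted p was 5.96e-06 for the 2.75-fold rise in CD32 2 h, 4.77e-05 for 1.99-fold in CD32 6 h and 4.02e-05 for 2.03-fold in CD64 6 h (limma), and the difference in CD64 2 h was log2 0.06 (SE 0.0969). These calls held without each array.

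SLC1A5, the glutamine exchanger, had 526 and 488 in control, 899.9 and 964 in CD32 2 h, 1372 and 1573 in CD32 6 h, 381 and 724 in CD64 2 h, and 599 and 816 in CD64 6 h. The CD32 arrays were all above control and the 2 CD64 2 h arrays lay on either side of it. The rise was 1.84-fold in CD32 2 h (adjusted p = 0.0376, limma) and 2.90-fold in CD32 6 h (adjusted p = 0.00145). Only the second of these held without each array: that at 2 h was lost without 8 of the 10, with an adjusted p of up to 0.219 without the second CD32 2 h array, and also without the filter on dim probe sets.

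SLC38A1, a close relative of SLC38A2, moved otherwise: its signal was 338 and 300.0 in control, 508 and 454 in CD32 2 h, 357 and 273 in CD32 6 h, 193 and 187 in CD64 2 h, and 404 and 410.3 in CD64 6 h. The CD64 2 h arrays were the lowest of the 10, 1.68-fold under control (log2 -0.75, SE 0.197, adjusted p = 0.0265, limma). That call was lost without the first control array (adjusted p = 0.111), without the first or second CD64 2 h array (0.0891 and 0.108), and under quantile and loess scaling.

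SLC43A1, a sodium-independent carrier of large neutral amino acids, fell under CD64. Its signal was 812 and 674 in control, 440.1 and 539 in CD32 2 h, 474 and 530.0 in CD32 6 h, 474 and 322 in CD64 2 h, and 341 and 394 in CD64 6 h. Both controls were above all 8 cross-linked arrays. The fall was 1.89-fold in CD64 2 h (adjusted p = 0.0117, limma) and 2.02-fold in CD64 6 h (adjusted p = 0.00467), and in CD32 the differences of log2 -0.60 and -0.56 were not called. Without the first control array these CD64 values had an adjusted p of 0.105 and 0.0566, without the second CD64 2 h array the former had 0.0977, and without the first CD64 6 h array the latter had 0.0551.

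SLC7A7, the light chain of an exchanger of cationic for neutral amino acids, read 60.7 and 111 in control against 196.6 and 198 in CD64 6 h, a 2.40-fold rise (adjusted p = 0.0378, limma). The other groups ran from 66.1 to 171 and were not called, and the call was lost without 9 of the 10 arrays and under quantile and loess scaling. SLC15A1, a proton-coupled peptide transporter known mainly from the gut, read 123 and 100.1 in control, 24.8 and 49.8 in CD32 6 h and 31.9 and 15.9 in CD64 2 h. With values under the floor set to it, it was at least 2.57-fold lower in CD32 6 h (adjusted p = 0.0217) and at least 2.96-fold lower in CD64 2 h (adjusted p = 0.0138, limma). Adding the floor value to each signal in place of flooring ended the CD32 6 h call, as did leaving out the first control array (adjusted p = 0.097) or the first CD32 6 h array (0.139). The CD64 2 h call was lost without the first control array (0.074) or either CD64 2 h array (0.0805 and 0.0759). SLC1A3, a glutamate transporter named here after its values were seen, was called higher at 6 h under both receptors, at 116 and 171 in control, 293 and 265 in CD32 6 h and 303 and 305 in CD64 6 h. Its call in CD32 6 h (log2 0.98) was lost without 9 of the 10 arrays, and that in CD64 6 h (log2 1.11) without the first control array (0.14) or either CD64 6 h array (0.121 and 0.122). The other 11 members of the class were called nowhere against control, with log2 differences from -1.40 to 1.08.

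**Figure D2:**
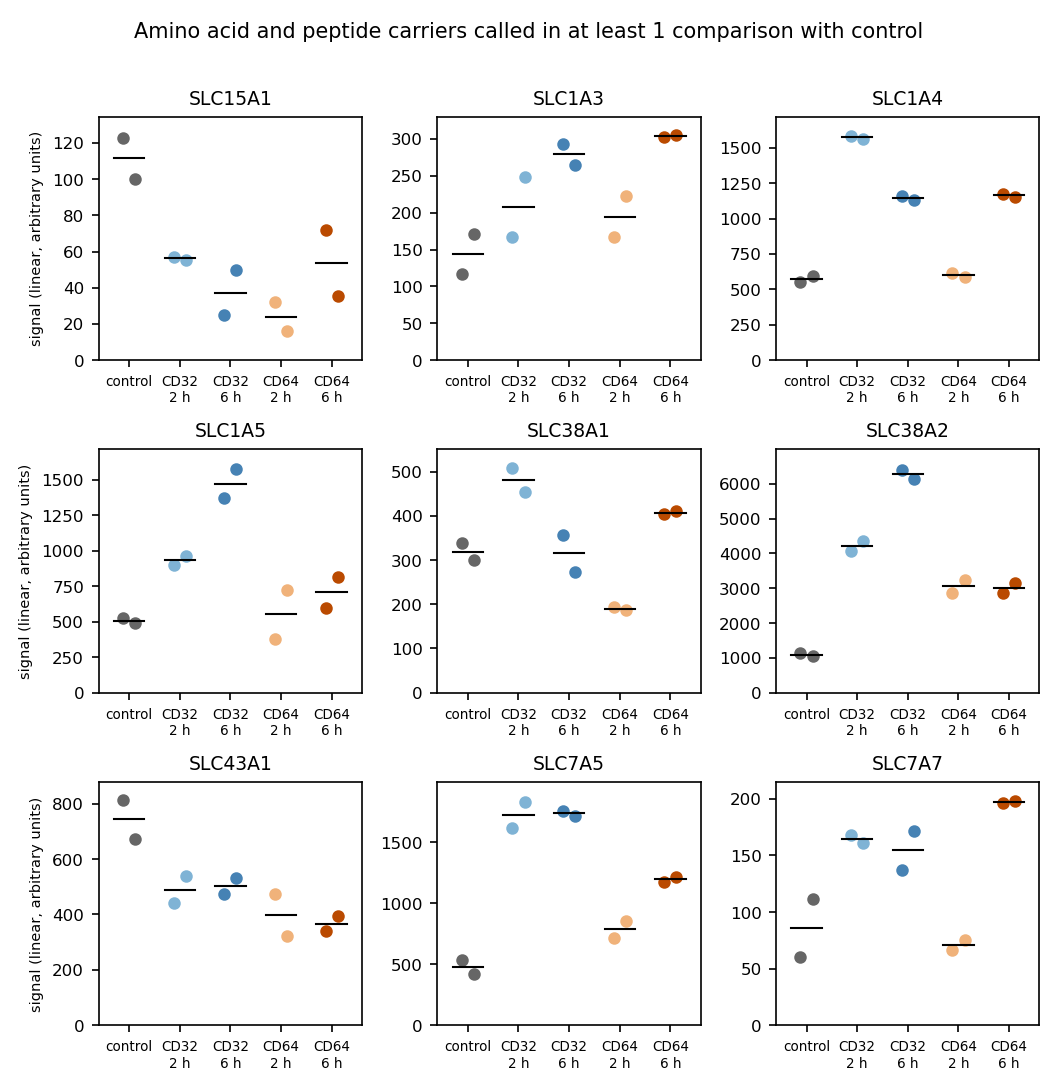
Signal (linear, arbitrary units) of amino acid and peptide transporters by group; points are single arrays and bars are group means. SLC38A2, SLC7A5, SLC1A4 and SLC1A5 are highest under CD32, while SLC43A1 lies at 322 to 812 with both controls on top.

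Inorganic ion transporters were the second largest class, and 4 of 25 were called against control (16.0%, beside 35.4% of all probe sets). Only 11 of the 25 lay above the floor on all 10 arrays. The sodium-coupled phosphate transporter SLC20A1, a housekeeping carrier in many cells, read 979 and 1063 in control, 1672 and 1714 in CD32 2 h, 2039 and 2037 in CD32 6 h, 1489.9 and 1672 in CD64 2 h, and 1634 and 1904 in CD64 6 h. Every cross-linked array lay above both controls. The rises were 1.66-fold, 2.00-fold, 1.55-fold and 1.73-fold (SE of log2 0.104, adjusted p = 0.000856, 6.94e-05, 0.00224 and 0.000314, limma), and each held without any single array. SLC20A2, its paralogue, read 38 and 80.6 in control and 220.4 and 143 in CD64 6 h (3.21-fold, adjusted p = 0.0409, limma). Its call was lost without 7 of the 10 arrays and under quantile scaling, with an adjusted p of up to 0.253 without the first control array.

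SLC4A2, which exchanges chloride for bicarbonate and so helps to set cell pH, rose under CD32. Its signal was 86.7 and 115 in control, 275 and 211 in CD32 2 h, 434 and 371 in CD32 6 h, 61.5 and 100.1 in CD64 2 h, and 128 and 169 in CD64 6 h. The CD32 arrays did not overlap with any other group. CD32 6 h was 4.01-fold above control (log2 2.00, SE 0.357, adjusted p = 0.00249, limma), which held without each array. CD32 2 h was 2.41-fold above it (adjusted p = 0.0356), which was lost without 8 of the 10 arrays and under quantile scaling.

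SLC12A5, a potassium-chloride cotransporter known from neurons, had 82.8 and 68.9 in control and mostly values under the floor elsewhere: 34.5 and 11.3 in CD32 2 h, 9.6 and 25.8 in CD32 6 h, 49.3 and 24.2 in CD64 2 h, and 32.1 and 45 in CD64 6 h. It was at least 2.01-fold lower in CD32 at both times (adjusted p = 0.0251 and 0.0195, limma). In CD64 6 h the fitted 1.84-fold (adjusted p = 0.0358, limma) depends on the floor, as the array at 32.1 was raised to it. The 3 calls were lost with a floor of 75 and with no floor. They were lost too without the first control array (0.07, 0.0599 and 0.0916), and without either array of the group concerned (0.0577 to 0.193). The other 21 ion transporters had log2 differences from -0.92 to 1.10 and no call.

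Metal transporters were called against control in 7 of 11 members (63.6%, beside 35.4% of all probe sets), and 9 of the 11 lay above the floor on all 10 arrays. SLC31A1, the high-affinity copper importer, and SLC31A2, a relative found mainly inside cells, were both highest in CD64 6 h. SLC31A1 read 254 and 189 in control, 367 and 428 in CD32 2 h, 294 and 344 in CD32 6 h, 247 and 206 in CD64 2 h, and 769.5 and 582 in CD64 6 h. Only the CD64 6 h arrays lay above all others. The rise was 3.05-fold there (log2 1.61, SE 0.228, adjusted p = 0.000511, limma), which held without each array, and 1.81-fold in CD32 2 h (adjusted p = 0.0279). The latter was lost without the second control array (0.14) and without either CD32 2 h array (0.0888 and 0.177).

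SLC31A2 gave 265 and 224 in control, 432 and 529 in CD32 2 h, 374 and 440.2 in CD32 6 h, 394 and 359.9 in CD64 2 h, and 619 and 799.9 in CD64 6 h. All 8 cross-linked arrays exceeded both controls. The rises were 1.96-fold, 1.66-fold, 1.55-fold and 2.89-fold (adjusted p = 0.00595, 0.0202, 0.0492 and 0.000236, limma). The rise in CD64 6 h held without each array, and that in CD64 2 h was lost without any 1 of the 10 arrays and with the array number as a replicate block (adjusted p = 0.0521). That in CD32 2 h was lost without the second CD32 2 h array (0.0742), and that in CD32 6 h without the second control array (0.0998) or either CD32 6 h array (0.0512 and 0.121).

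Zinc transporters went both ways. SLC39A6, an importer, read 878 and 898 in control, 1187 and 1119.7 in CD32 2 h, 1124 and 1399 in CD32 6 h, 1264 and 1087 in CD64 2 h, and 1354 and 1371 in CD64 6 h. Its controls were below all other arrays, and it was called higher in CD32 6 h (1.41-fold), CD64 2 h (1.32-fold) and CD64 6 h (1.53-fold, adjusted p = 0.0041, limma). Only the last of these held without each array. The CD64 2 h call was lost without 8 of 10 arrays, under both other scalings and with the replicate block, and the CD32 6 h call was lost without either control array (0.0818 and 0.0579) or the second CD32 6 h array (0.102).

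SLC39A7, which releases zinc from the endoplasmic reticulum and Golgi, read 389 and 242 in control, 206 and 196 in CD32 2 h, 324 and 368 in CD32 6 h, 133 and 72.7 in CD64 2 h, and 278 and 243 in CD64 6 h. The CD64 2 h arrays were the lowest, 3.12-fold below control (log2 -1.64, SE 0.336, adjusted p = 0.00762, limma), a call lost without the first control array (0.0769) or the second CD64 2 h array (0.0594). SLC30A9 read 642 and 457 in control and 279.8 and 294 in CD32 6 h, 1.89-fold lower (adjusted p = 0.0228, limma), and was lost without 5 of the 10 arrays. Its other groups ran from 379 to 945 and were not called. SLC39A1 (253 and 169 in control, 372 and 331 in CD64 6 h) and SLC39A8 (949.9 and 1138 in control, 1451 and 1678 in CD64 6 h), the latter named after its values were seen, were called higher in CD64 6 h at log2 0.76 and 0.59. The SLC39A1 call was lost without 9 of 10 arrays, and the SLC39A8 call without the first control array (0.12) or the second CD64 6 h array (0.121). The other 4 metal transporters ran from log2 -0.64 to 1.40 with no call, among them SLC11A1, the metal transporter of phagosomes, at 74.7 to 141 over the 10 arrays.

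Mitochondrial carriers were called against control in 5 of 13 members (38.5%), near the 35.4% of all probe sets. SLC25A32 imports folate and flavin adenine dinucleotide. It read 337 and 354 in control, 744 and 738 in CD32 2 h, 667 and 764 in CD32 6 h, 976 and 993 in CD64 2 h, and 982 and 895 in CD64 6 h. All cross-linked arrays were above control, and the CD64 arrays were above the CD32 arrays. The rises were 2.15-fold and 2.07-fold for CD32 and 2.85-fold and 2.71-fold for CD64 (SE of log2 0.118, adjusted p = 0.000132, 0.000126, 4.1e-05 and 1.57e-05, limma), and each held without any single array.

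SLC25A14, a carrier of the uncoupling protein family, had 104 and 134 in control, 369.7 and 311 in CD32 2 h, 244 and 200.3 in CD32 6 h, 248 and 234 in CD64 2 h, and 305 and 330.1 in CD64 6 h. Both controls lay below the other 8 arrays. It was 2.88-fold, 1.88-fold, 2.04-fold and 2.70-fold higher (adjusted p = 0.00216, 0.0265, 0.018 and 0.00201, limma). The CD32 6 h call was lost without the first control array (0.101) or the first CD32 6 h array (0.14), and the CD64 2 h call without the first control array (0.0765) or either CD64 2 h array (0.0969 and 0.0723).

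The aspartate-glutamate carriers SLC25A12 and SLC25A13 move reducing equivalents between cytosol and mitochondria. SLC25A12 read 347 and 539 in control, 698 and 680.0 in CD32 2 h, 469 and 538 in CD32 6 h, 352 and 309 in CD64 2 h, and 662 and 693 in CD64 6 h. It was called higher in CD32 2 h (1.59-fold, adjusted p = 0.0415) and CD64 6 h (1.57-fold, adjusted p = 0.0383, limma), and both calls were lost without 9 of the 10 arrays and under quantile scaling. SLC25A13 read 244 and 225 in control, 418 and 386 in CD32 6 h and 387 and 417 in CD64 6 h, and was called at 1.71-fold and 1.72-fold (adjusted p = 0.0178 and 0.0165). Its 2 h arrays, at 219.7 to 310, were not called. The CD32 6 h call was lost without the second control array (0.0573) or the first CD32 6 h array (0.0904), and the CD64 6 h call without the second control array (0.0582) or either CD64 6 h array (0.0685 and 0.109). SLC25A11, the oxoglutarate carrier, read 392 and 422 in control and 225 and 213 in CD32 6 h, 1.86-fold lower (log2 -0.89, SE 0.18, adjusted p = 0.00517, limma), which held without each array. The other 8 carriers ran from log2 -0.99 to 0.50 with no call.

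Sugar transporters were called against control in 6 of 13 members (46.2%, beside 35.4% of all probe sets). SLC2A5, a fructose transporter, fell under CD32: it read 1882 and 1941 in control, 1309 and 1459 in CD32 2 h, 951 and 890.2 in CD32 6 h, 1631 and 1439.6 in CD64 2 h, and 1637 and 1764 in CD64 6 h. The CD32 6 h arrays were the lowest of the 10. The fall was 2.08-fold there (log2 -1.05, SE 0.102, adjusted p = 4.58e-05, limma), which held without each array, and 1.38-fold in CD32 2 h (adjusted p = 0.0103), which was lost without the second control array (0.0577) or the first CD32 2 h array (0.0897). CD64 gave log2 -0.32 and -0.17, not called.

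SLC37A4, which carries glucose 6-phosphate into the endoplasmic reticulum, read 227 and 276 in control, 137 and 119 in CD32 2 h, 118 and 115 in CD32 6 h, 137 and 125 in CD64 2 h, and 90.8 and 104 in CD64 6 h. Both controls were above all other arrays, and the calls were CD32 6 h (2.15-fold lower, adjusted p = 0.0343) and CD64 6 h (2.58-fold lower, adjusted p = 0.0113, limma). The former was lost without either control array (0.0505 and 0.0959), without either CD32 6 h array (0.0959 and 0.0967) and under both other scalings, and the latter without the first CD64 6 h array (0.0721).

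SLC2A1, the widespread glucose transporter, read 853 and 490.4 in control, a wide spread, and 313 to 505 on the 8 cross-linked arrays. It was called lower in CD32 2 h only (1.78-fold, adjusted p = 0.0448, limma), and lost that call without 9 of the 10 arrays and with the replicate block. SLC2A6 lay under the floor in control (21.2 and 9.3) and read 96.6 and 113 in CD64 6 h, at least 2.78-fold higher (adjusted p = 0.0157). The first array of each CD32 group was above it (68.7 and 65.7) and the second below it (8.8 and 9.8), with no call. The CD64 6 h call was lost without either control array (0.0733 and 0.0695) or either CD64 6 h array (0.0582 and 0.0916). SLC5A3, which takes up myo-inositol with sodium, read 447 and 329 in control and 638 and 572 in CD64 6 h (1.58-fold, adjusted p = 0.038), and the call was lost without 8 of the 10 arrays and under both other scalings. SLC50A1 read 658 and 735 in control and 523 and 439 in CD64 2 h (1.45-fold lower, adjusted p = 0.0225), lost without the second control array (0.0957) or the second CD64 2 h array (0.149). The other 7 sugar transporters ran from log2 -0.81 to 0.75.

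Vitamin, haem, choline and lipid carriers were called against control in 3 of 9 members (33.3%), near the 35.4% of all probe sets, and SLC33A1 gave the largest fold of any member in CD32 2 h. It read 146 and 108 in control, 652 and 593 in CD32 2 h, 362 and 467 in CD32 6 h, 428 and 385 in CD64 2 h, and 618 and 539 in CD64 6 h. The lowest cross-linked array, at 362, was far above both controls. The rises were 4.94-fold, 3.27-fold, 3.23-fold and 4.59-fold (SE of log2 0.206, adjusted p = 3.6e-05, 0.000194, 0.000394 and 3.67e-05, limma), and each held without any single array.

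SLC5A6, which takes up biotin and pantothenate with sodium, read 335 and 373 in control, 687 and 656 in CD32 2 h, 641 and 550.4 in CD32 6 h, 351 and 367 in CD64 2 h, and 429.9 and 565 in CD64 6 h. It was 1.90-fold above control in CD32 2 h (adjusted p = 0.00368, limma), which held without each array. In CD32 6 h it was 1.68-fold above control (adjusted p = 0.00892, limma), which was lost without the first control array (0.0615) or the first CD32 6 h array (0.079). CD64 gave log2 0.02 and 0.48, not called. SLC19A1, the reduced folate carrier, moved the other way: it read 928 and 844 in control, 601 and 605 in CD32 6 h and 1111 and 1232 in CD64 2 h. It was called lower in CD32 6 h (1.47-fold, adjusted p = 0.0104, limma), and the call was lost without the first control array (0.0741) or either CD32 6 h array (0.0615 and 0.0514). The other 6 ran from log2 -0.60 to 0.73.

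In each of the 4 remaining classes the share called against control, 0% to 33.3%, lay under the 35.4% of all probe sets. SLC35A1 was the 1 called of 3 nucleotide sugar carriers. It read 529 and 572 in control, 905 and 894 in CD32 2 h, 749 and 769.5 in CD32 6 h, 888 and 739 in CD64 2 h, and 957 and 997.5 in CD64 6 h. All cross-linked arrays were above control, by 1.64-fold, 1.38-fold, 1.47-fold and 1.78-fold (adjusted p = 0.00238, 0.0183, 0.00943 and 0.000559, limma). The CD32 2 h and CD64 6 h calls held without each array. That in CD32 6 h was lost without the first control array (0.0863) or either CD32 6 h array (0.066 and 0.0742), and that in CD64 2 h without the first control array (0.057) or the first CD64 2 h array (0.0796).

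SLC29A1, an equilibrative nucleoside transporter, was the 1 called of 4 nucleoside carriers, at 369 and 308 in control and 191 and 194 in CD64 2 h (1.75-fold lower, adjusted p = 0.0327, limma). The call was lost without 6 of the 10 arrays and under both other scalings. Of 31 carriers of neurotransmitters, osmolytes and organic ions 2 were called (6.45%), and only 11 of the 31 lay above the floor on all 10 arrays. SLC75A1 read 1569.8 and 2057 in control, 1398 and 1257 in CD32 2 h, 1697 and 1725 in CD32 6 h, 865 and 937 in CD64 2 h, and 914 and 1042 in CD64 6 h. The CD64 arrays were below all others, by 2.00-fold and 1.84-fold against control (adjusted p = 0.000629 and 0.000782, limma), and both calls held without each array. Its 1.36-fold fall in CD32 2 h (adjusted p = 0.0478) was lost without 9 of the 10. SLC6A3, the dopamine transporter of neurons, read 12.5 on both control arrays and 72.1 and 113 in CD32 6 h (at least 2.40-fold, adjusted p = 0.0287). That call was lost without either control array (0.0916 and 0.0757), without the second CD32 6 h array (0.126) and with a floor of 75. None of 3 monocarboxylate and dicarboxylate carriers was called, with log2 differences from -0.80 to -0.25.

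**Figure D3:**
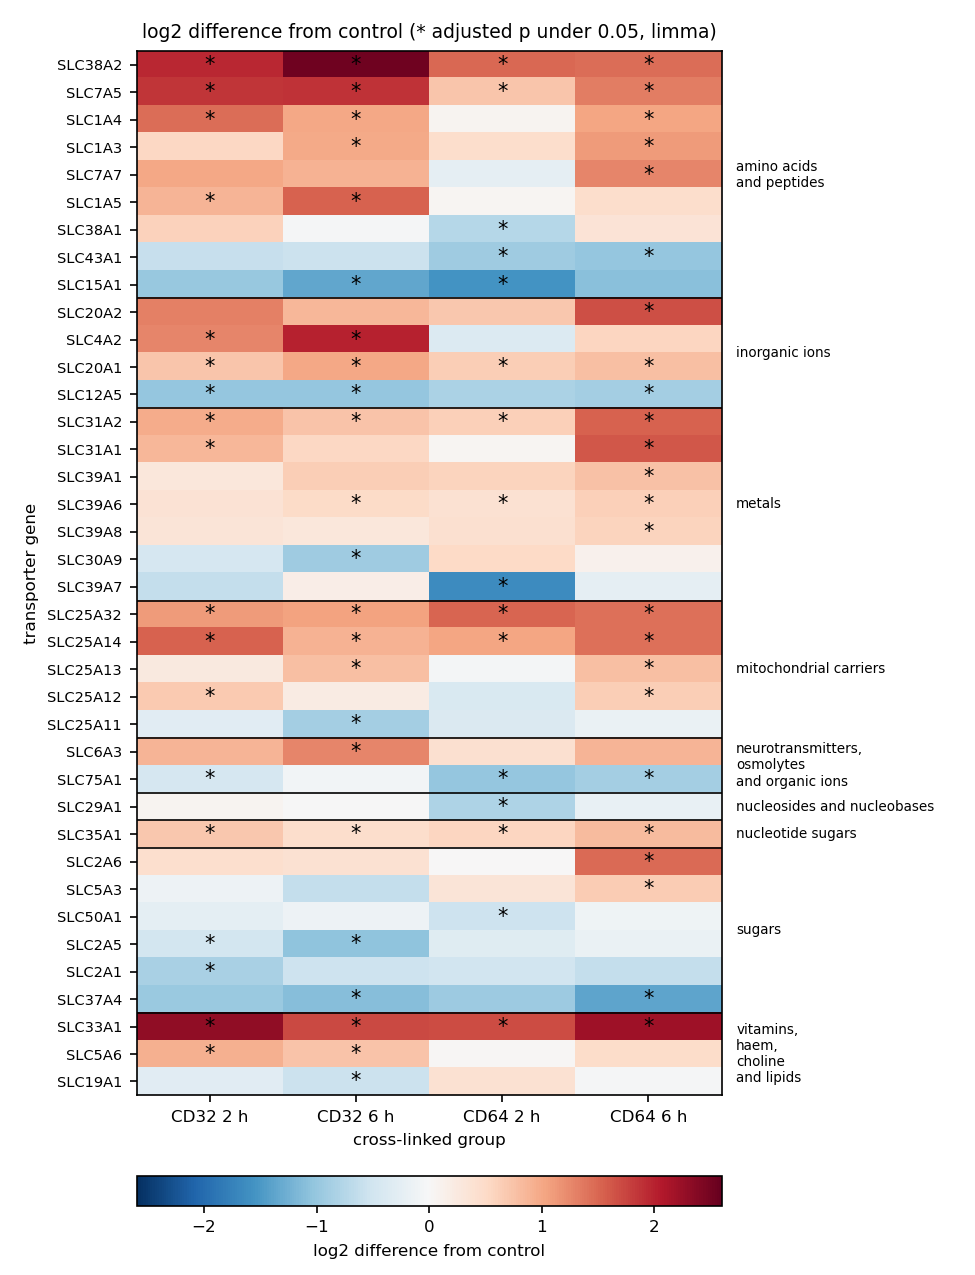
log2 difference from control in the 4 cross-linked groups (columns) for the 38 transporters called in at least 1 of them (one line of cells per gene, ordered by substrate class); colour gives the log2 difference and a star marks an adjusted p under 0.05 in limma. The 8 genes with 4 stars all lie above 0, up to 2.53 for SLC38A2 in CD32 6 h.

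Counted over all classes, 38 of 132 members (28.8%) were called in at least 1 comparison with control, beside 35.4% of all probe sets. Of these 24 were only called higher (18.2% of members, beside 15.5% of all probe sets) and 14 only lower (10.6%, beside 17.9%). In an F-test over the 4 comparisons 34 members (25.8%) were called, beside 34.5% of all. All these shares describe the list and were not tested against other genes.

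CD32 at 2 h gave 18 called members (13.6%), 14 higher and 4 lower, beside 15.5% of all probe sets (8.86% higher and 6.6% lower). It was led by SLC33A1, SLC38A2, SLC7A5, SLC25A14 and SLC1A4 upward and by SLC12A5, SLC2A1, SLC2A5 and SLC75A1 downward. The median log2 difference was 0.06 over the members and -0.03 over all probe sets, and 8 of the calls were over 2-fold (6.06% of members, beside 5.46% of all probe sets). Without the second CD32 2 h array the count was 11, and 9 calls held without each array.

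CD32 at 6 h gave 23 (17.4%), 16 higher and 7 lower, beside 20.0% of all (9.63% higher and 10.3% lower). Amino acid carriers SLC38A2, SLC7A5 and SLC1A5 stood with SLC4A2 and SLC33A1 among the higher, and the peptide carrier SLC15A1, SLC37A4 and SLC2A5 among the lower. The median was log2 0.05 against -0.08 over all probe sets, 11 calls were over 2-fold (8.33%, beside 8.08% of all), and without the first CD32 6 h array the count was 12. In all, 10 calls held without each array.

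CD64 at 2 h gave the fewest, 16 (12.1%), 9 higher and 7 lower, beside 15.9% of all (7.64% higher and 8.24% lower). SLC33A1, SLC25A32 and SLC38A2 led the higher, SLC39A7, SLC15A1 and SLC75A1 the lower. The median was log2 -0.27 over members and -0.13 over all probe sets, and quantile scaling, which makes the arrays' distributions equal, brings the latter to 0. Without the first control array the count was 8, without the first CD64 2 h array 9 and without the second 7, and 6 calls held without each array: SLC20A1, SLC25A32, SLC33A1, SLC38A2, SLC75A1 and SLC7A5.

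CD64 at 6 h gave the most, 24 (18.2%), 20 higher and 4 lower, beside 20.6% of all (10.7% higher and 9.94% lower). SLC33A1, SLC20A2, SLC31A1, SLC31A2 and SLC2A6 led the higher, and SLC37A4, SLC43A1, SLC75A1 and SLC12A5 were the lower. The median was log2 -0.01 against -0.04, 14 calls were over 2-fold (10.6%, beside 7.82% of all), and without either CD64 6 h array the count was 15. In all, 12 calls held without each array.

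**Figure D4:**
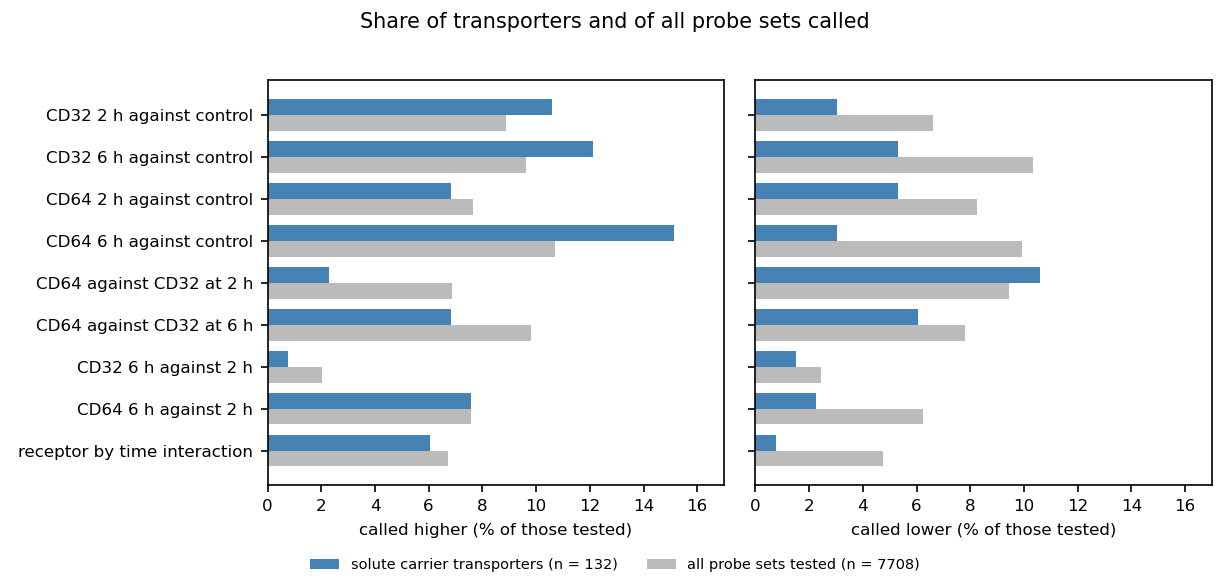
Share (%) called higher (left) and lower (right) among the 132 transporters and all 7708 probe sets, for 9 comparisons; paired bars share a comparison. Against control the transporters' share called lower, 3.03% to 5.3%, lies under that of all probe sets, 6.6% to 10.3%. Signal level was not matched.

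Between the receptors at 2 h, 17 members were called (12.9%, beside 16.3% of all probe sets, 6.86% higher and 9.43% lower), 3 higher under CD64 and 14 lower. Of the 14, 5 were among the 20 amino acid and peptide carriers (25% of that class): SLC1A4 was 2.63-fold lower under CD64 (log2 -1.40, SE 0.0969, adjusted p = 3.02e-05, limma), SLC38A1 2.53-fold (adjusted p = 0.00124), SLC7A5 2.20-fold (adjusted p = 0.000386), SLC1A5 1.78-fold (adjusted p = 0.0461) and SLC38A2 1.38-fold (adjusted p = 0.00717). SLC25A12 (2.09-fold) and SLC5A6 (1.87-fold) were lower too, while SLC19A1 (1.62-fold), SLC30A9 (1.95-fold) and SLC25A32 (1.33-fold) were higher. The split moved to 4 higher and 7 lower under quantile scaling and to 6 and 10 under loess. Without the first or second CD32 2 h array 7 were called, and without the first or second CD64 2 h array 7 and 11. The calls of SLC1A4, SLC38A1, SLC7A5, SLC25A12, SLC5A6 and SLC19A1 held without each array. That of SLC38A2 was lost without the second CD32 2 h array (0.0745) or the first CD64 2 h array (0.0669), those of SLC1A5, SLC25A32 and SLC30A9 without 9, 6 and 5 of the 10, and that of SLC1A5 also under quantile scaling.

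Lower too under CD64 at 2 h were SLC4A2 (3.07-fold, adjusted p = 0.0105, limma), SLC29A1 (1.85-fold), SLC31A1 (1.76-fold), SLC75A1 (1.47-fold) and SLC23A2, an ascorbate transporter (303 and 356 under CD32, 217 and 169 under CD64). SLC17A3 read 104 and 110 under CD32 and 39.4 and 10.3 under CD64, at least 2.78-fold. SLC44A4 read 123 and 64.4 under CD32 and 13.9 and 8.3 under CD64, at least 2.37-fold. Each of these 7 calls was lost without 3 or more arrays, and all but that of SLC75A1 were lost under quantile scaling.

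At 6 h, 17 were called between the receptors (12.9%, beside 17.6% of all, 9.81% higher and 7.8% lower), 9 higher under CD64 and 8 lower. SLC38A2 stayed lower under CD64, 2.09-fold (log2 -1.07, SE 0.0954, adjusted p = 5.19e-05, limma), as did SLC4A2 (2.73-fold), SLC1A5 (2.10-fold), SLC75A1 (1.75-fold) and SLC7A5 (1.45-fold). SLC5A3 (2.40-fold, adjusted p = 0.00149), SLC31A1 (2.10-fold), SLC30A9 (2.03-fold), SLC2A5 (1.85-fold, adjusted p = 0.000216) and SLC31A2 (1.73-fold) were higher. SLC1A4, called at 2 h, read 1156 and 1131 under CD32 and 1171 and 1154 under CD64 at 6 h and was not called. Quantile and loess scaling each left 11 calls, 5 higher and 6 lower. Without the first or second CD32 6 h array 4 and 10 were called, without the first or second CD64 6 h array 5 and 11, and only SLC2A5, SLC38A2, SLC5A3 and SLC75A1 held without each array.

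Of the 17, 5 were among the 13 mitochondrial carriers (38.5%, beside 17.6% of all probe sets), with all 5 calls lost under both other scalings. The phosphate carrier SLC25A3 read 6442 and 5871 in CD32 6 h and 4534 and 4931 in CD64 6 h (1.30-fold lower, adjusted p = 0.0128, limma), and the ADP/ATP carrier SLC25A5 9549.6 and 10502 against 5161 and 6504 (1.73-fold lower, adjusted p = 0.0114). SLC25A11 (1.65-fold), SLC25A40 (1.52-fold) and SLC25A32 (1.31-fold) were higher under CD64, and SLC19A1 was 1.43-fold higher. These 6 calls were all lost under quantile and loess scaling, and each was lost without 2 or more arrays, SLC25A3 without the first CD32 6 h array (0.0933) or the first CD64 6 h array (0.0986). SLC10A2, a bile acid transporter, read 120.2 and 94.5 in CD32 6 h and 43.6 and 24.5 in CD64 6 h (at least 2.64-fold), lost without the first CD32 6 h array (0.101) or either CD64 6 h array (0.0761 and 0.114).

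From 2 h to 6 h little was called under CD32: 3 members (2.27%), beside 4.46% of all probe sets (2.04% higher and 2.43% lower). SLC38A2 rose further (1.49-fold, adjusted p = 0.00877, limma), and SLC1A4 (1.38-fold, adjusted p = 0.0242) and SLC2A5 (1.5-fold, adjusted p = 0.0109) fell. All 3 calls were lost without any 1 of the 4 CD32 arrays, and loess scaling left 1 higher and 1 lower.

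Under CD64, 13 were called between 2 h and 6 h (9.85%, beside 13.8% of all, 7.56% higher and 6.25% lower), 10 higher and 3 lower at 6 h. SLC31A1 rose 2.97-fold (adjusted p = 0.0013, limma), SLC38A1 2.15-fold (adjusted p = 0.00408) and SLC1A4 1.94-fold (adjusted p = 0.000143), and these 3 held without each array. SLC7A7 (2.80-fold), SLC39A7 (2.65-fold), SLC25A12 (2.05-fold), SLC31A2 (1.87-fold), SLC25A13 (1.77-fold), SLC7A5 (1.53-fold) and SLC2A6 (at least 2.78-fold) rose too, and SLC25A5 (1.52-fold), SLC19A1 (1.36-fold) and SLC25A3 (1.25-fold) fell. Quantile and loess scaling each gave 8 higher and 1 lower. Leaving out the first or second CD64 2 h array gave 7 and 5 calls, and the first or second CD64 6 h array 6 and 3.

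The interaction asks whether the change from 2 h to 6 h differed between receptors, and 9 members were called (6.82%, beside 11.5% of all probe sets, 6.72% higher and 4.75% lower). In 8 the step from 2 h to 6 h was more upward under CD64: SLC31A1 (log2 1.89), SLC38A1 (1.72), SLC17A5, a lysosomal exporter of sialic acid (1.64), SLC25A12 (1.49), SLC1A4 (1.42), SLC31A2 (1.14), SLC33A1 (1.10) and SLC2A5 (0.74). In SLC38A2 it was more downward (log2 -0.60). For SLC1A4 the arrays fell from 1587 and 1565 to 1156 and 1131 under CD32 and rose from 612 and 586 to 1171 and 1154 under CD64 (SE 0.137, adjusted p = 0.000181, limma). For SLC38A1 they went from 508 and 454 to 357 and 273 under CD32 and from 193 and 187 to 404 and 410.3 under CD64 (adjusted p = 0.00305). The median interaction was log2 0.21 over members and 0.16 over all probe sets, and the latter was -0.01 under quantile scaling, which makes the arrays' distributions equal. Both quantile and loess scaling left 5 calls, all higher: SLC1A4, SLC38A1, SLC31A1, SLC25A12 and SLC2A5. These 5 also held without each array. Without the first CD32 6 h array or the second CD64 2 h array 5 were called.

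**Figure D5:**
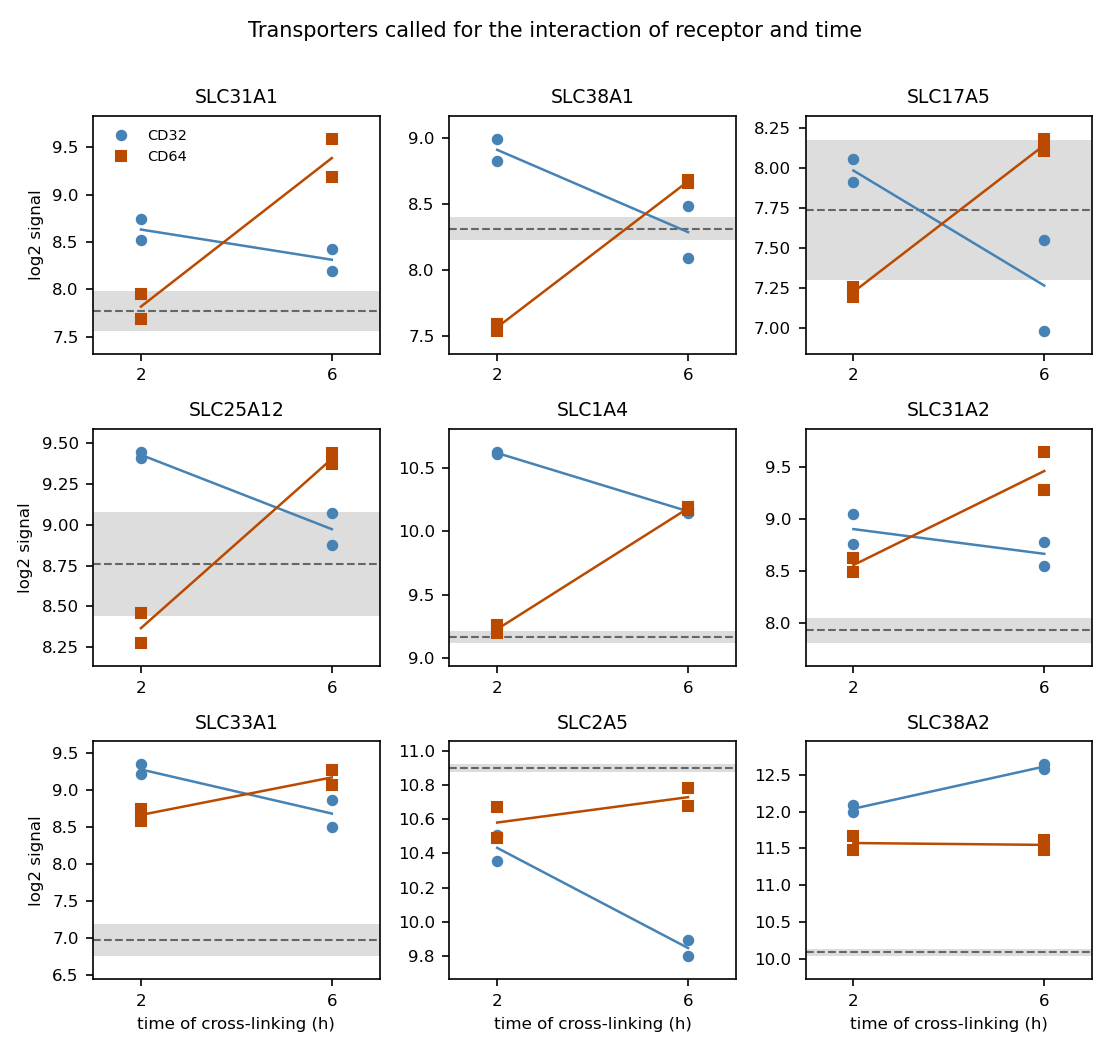
log2 signal at 2 h and 6 h of the 9 transporters called for the interaction, with 1 line per receptor; points are single arrays and lines join the group means. SLC1A4 and SLC38A1 are higher under CD32 at 2 h, and SLC38A1 is higher under CD64 at 6 h, and in SLC38A2 the CD32 points rise to 6393 and 6145 in linear signal.

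Genes that work with transporters were taken from a separate list and were not refitted under the alternatives. The sodium pump supplies the gradient for sodium-coupled uptake. Of its 3 measured subunits ATP1B3 was higher in all 4 comparisons with control (log2 0.56, 0.57, 0.37 and 0.83), ATP1B2 was lower in all 4 and ATP1B1 was not called. ATP1B3 read 2013 and 2143 in control and 2672 to 4032 on the 8 cross-linked arrays. ATP1B2 read 95.4 and 73.8 in control and under the floor on all 8 others (at least 2.24-fold lower). It passed the filter through the control arrays only. Its 4 calls set the same controls against the floor value, so they are not separate results. Among 6 chaperones and regulators STK39, a kinase that regulates chloride cotransporters, was lower in all 4 (log2 -0.90, -0.82, -0.53 and -0.71). Over all probe sets 2.91% were called higher and 1.61% lower in all 4. BSG, the chaperone of monocarboxylate carriers, was lower in CD64 2 h (log2 -1.17, adjusted p = 0.00138, limma), at 478 and 515 beside 898 and 1381 in control. None of 9 organic anion transporters of the SLCO family was called against control, beside 35.4% of all probe sets called in at least 1 such comparison. Only SLCO3A1 and SLCO4A1 of them lay above the floor on all 10 arrays, so a change in the others could easily be missed. SLCO3A1 was called for the interaction (log2 1.25, adjusted p = 0.0402, limma), beside 11.5% of all probe sets.

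The 3 genes left out of the members are in the same families. SLC3A2, the heavy chain that SLC7A5 needs at the surface, read 492 and 483 in control, 985 and 935 in CD32 2 h, 933 and 922 in CD32 6 h, 402 and 429 in CD64 2 h, and 696 and 838 in CD64 6 h, and SLC7A11, the cystine exchanger that uses the same heavy chain, was called higher in all 4 comparisons (4.68-fold, 3.01-fold, 2.77-fold and 5.13-fold). SLC2A3, a high-affinity glucose transporter, read 1482 and 1759 in control and was called lower in CD32 2 h (2.44-fold), CD64 2 h (2.79-fold) and CD64 6 h (2.93-fold) but not in CD32 6 h, at 1509 and 1921.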

How the data were processed

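Per the labels, total RNA of 10 samples was measured on a 1-colour oligonucleotide array. The deposited values are signal intensity on a linear scale, 1 per probe set, which the submitters had scaled: their mean after trimming 2% at either end ran from 500.457 to 500.633 over the arrays. Which software did so is not given in the sources used here. Of 8746 probe sets (47 control probe sets aside) 7840 had 1 symbol in the platform annotation, which can be old, 388 several and 518 none.

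Values were used as deposited, raised to a floor of about 38 (the percentile 25 of all values; no detection call) and taken as log2. Probe sets over the floor on 2 or more arrays, 7708 in all, were fitted with limma 3.58.1 in R 4.3.3 (1 term per group, eBayes with a trend, 5 residual and 5.65 prior degrees of freedom). Two-sided p-values were adjusted by Benjamini and Hochberg over the 7708. The script was tested on simulated data. An SE is of the log2 difference, n = 2 arrays per group. A fold is given as a bound where the lower group's mean did not exceed the floor. The number of arrays limits the precision. Each gene had 1 probe set, that with the highest mean, a choice that arose only for SLC22A17. Substrate classes followed family and gene, and SLC67A1 and SLC75A1, newer symbols, were added to the organic ion class after they were seen.

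The members and lists were chosen with earlier results of these data known. Named genes were, per comparison, the 8 highest and 8 lowest called members without overlap between the arrays, up to 3 called members per class, those called one way in all 4 comparisons with control and those called for the interaction. Alternatives were quantile and loess scaling, a floor of 75, log2 of the signal plus the floor value, no filter, a filter on all 10 arrays, no variance trend, only the groups compared, another probe set choice, the array number as a block and leaving out each array. Array numbers were not taken to pair the samples: correlations of residuals ran from -0.141 to 0.285 over 10 pairs of groups, with 0.204 and 0.247 between control and CD64 at 2 h and 6 h, 0.285 between the CD64 groups, and under 0.1 in every pair that held a CD32 group.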

Additional observations from a re-analysis of the deposited data

Results flagged for a closer look

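For 9 transporters the change from 2 h to 6 h differed between CD64 and CD32 by a test of the difference itself, the interaction term of limma. They were 6.82% of the members, beside 11.5% of all probe sets. The value given is the log2 step under CD64 minus that under CD32. It was 1.89 for the copper importer SLC31A1 (adjusted p = 0.00406) and 1.14 for SLC31A2 (adjusted p = 0.0206). Amino acid carriers gave 1.42 for SLC1A4 (adjusted p = 0.000181), 1.72 for SLC38A1 (adjusted p = 0.00305) and -0.60 for SLC38A2 (adjusted p = 0.0164). It was 1.49 for SLC25A12 (adjusted p = 0.00641), 1.64 for SLC17A5 (adjusted p = 0.0483), 0.74 for SLC2A5 (adjusted p = 0.00841) and 1.10 for SLC33A1 (adjusted p = 0.0331). SLC17A5 read 241 and 266 at 2 h and 187 and 126 at 6 h under CD32, and 153 and 146 at 2 h and 289.9 and 275 at 6 h under CD64, and it was in no call against control. Its interaction was lost without any 1 of the 8 cross-linked arrays. Those of SLC31A2, SLC33A1 and SLC38A2 were lost without 5, 7 and 5 of the 10 arrays. These interactions, with that of SLC17A5, were also lost under quantile and loess scaling.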

How the results depend on the processing

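In no alternative did any of the 140 calls of members change direction. A change was possible only with other values: other scaling, another floor or none, or an array of a compared group left out. The remaining alternatives kept each log2 difference as it was, and the other probe set choice took the same probe sets. Quantile scaling ended 32 of the 140 calls, loess 27, a floor of 75 ended 35, no floor 6, no filter 32, no variance trend 46 and the replicate block 7. Fitting only the groups compared, with fewer residual degrees of freedom, ended 97. It called 7, 7, 0 and 11 members against control (CD32 2 h, CD32 6 h, CD64 2 h, CD64 6 h), beside 233, 385, 0 and 647 of all 7708 probe sets. Between receptors at 2 h and 6 h it called 5 and 5, beside 302 and 508 of all. Between times under CD32 and CD64 it called 0 and 0, beside 0 and 3 of all. As no probe set was called in CD64 2 h, none could be higher in all 4 comparisons. Between receptors at 2 h the count was 11 under quantile scaling and 11 with a floor of 75, beside 1122 and 1016 of all probe sets (1256 in the main fit). Between receptors at 6 h it was 11 under quantile scaling, 11 under loess and 10 without the variance trend, beside 1139, 1264 and 920 (main fit 1357). CD32 6 h against 2 h gave 0 without the trend and 2 under loess, beside 54 and 369 (main fit 344). The interaction gave 5 under quantile scaling, 5 under loess and 4 without the trend, beside 564, 648 and 417 (main fit 884). With only probe sets above the floor on all 10 arrays it gave 15 of 74 members, beside 1098 of 4924 probe sets. The cause of these moves was not tested. Leaving out 1 array gave 11 to 18 calls for CD32 2 h, 12 to 25 for CD32 6 h, 7 to 18 for CD64 2 h, 15 to 25 for CD64 6 h, 7 to 18 and 4 to 17 between receptors at 2 h and 6 h, 0 to 3 and 3 to 12 between times under CD32 and CD64, 5 to 11 for the interaction and 24 to 30 in the F-test. With the array number as a replicate block the counts were 17, 25, 14 and 25 against control, 19 and 15 between receptors, 3 and 12 between times, 10 for the interaction and 34 in the F-test. The 8 genes higher in all 4 comparisons were the same 8 under quantile scaling, loess and no floor. SLC31A2 left them with a floor of 75, with no filter, with the block and without any 1 array. Without the variance trend SLC31A2 and SLC35A1 left, and 5 to 7 were found without any 1 array. Signals near the floor limit what can be read of dim members.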
